A study of Mus musculus with 7 samples.

Results

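The 10 genes described here are the PDGF ligand genes Pdgfa, Pdgfb, Pdgfc and Pdgfd, the receptor gene Pdgfrb, and the mural cell genes Notch3, Rgs5, Cspg4, Mcam and Angpt1. They were picked by name, and all 10 were found among the 32544 genes of the deposited table. The labels give the tissue of all 7 libraries as whole abdominal aorta, from male Apoe-/- mice. Without apolipoprotein E, mice form atherosclerotic plaques on a fat-rich diet. All mice had been fed a high-fat diet for 12 weeks. One group of 3 libraries came from mice given ITA-LNP by weekly intravenous injection at 50 mg/kg, and the other group of 4 libraries from mice given Ctrl-LNP in the same way. LNP usually stands for lipid nanoparticle; the series title names itaconate, to which ITA presumably refers. Nothing in the labels ties each library to a separate animal, so the p-values rest on the spread between libraries, which may be partly technical.

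Mural cells are the smooth muscle cells and pericytes that wrap blood vessels. PDGFs are secreted dimers, and endothelial PDGF-B acting on the receptor tyrosine kinase PDGFRβ draws mural cells to growing vessels. Platelets carry PDGF in their granules, and PDGF drives the migration and division of smooth muscle cells in plaques. NOTCH3 keeps arterial smooth muscle mature, and angiopoietin 1, made largely by perivascular cells, acts on the receptor TIE2 (gene Tek) of endothelium. In whole tissue, fewer cells of a type cannot be told apart from less RNA per cell.

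The 7 libraries held 5077073 to 7281721 reads, and the limit that a count of 0 allows was 0.412 to 0.591 CPM (reads per 1000000), counting error only. The libraries labelled control-LNP were nearly without the defining transcripts of smooth muscle and fibroblasts. Their 10 smooth muscle markers summed to 125 to 229 CPM, against 18100 to 21590 CPM in the ITA-LNP libraries. Their 10 fibroblast markers summed to 126 to 295 CPM, against 19370 to 22360 CPM. The summed gap was smaller for 10 endothelial markers (256 to 454 against 1001 to 1219 CPM) and 16 pericyte markers (342 to 656 against 2539 to 2694 CPM). It was not small for every gene of these lists. Mean Egfl7 was 0.632 CPM with control-LNP against 240 CPM with ITA-LNP, Pecam1 204 against 226 and Vwf 114 against 78.0. Among the pericyte markers, mean Postn was 8.1 against 1440 CPM, Ebf1 376 against 281 and Gucy1b3 70.9 against 139. In the control-LNP libraries 14 platelet and megakaryocyte markers summed to 11000 to 15150 CPM, against 141 to 216 CPM with ITA-LNP. These values go against the labelled tissue for the control-LNP libraries and resemble blood, and whether tissue or labels were mixed cannot be told from the files. Every fold below therefore compares libraries as labelled, and a difference in tissue content cannot be told apart from an effect of ITA-LNP. Control-LNP replicate 2 stood apart: across the tested genes Pearson's r was 0.607 to 0.625 between it and control-LNP replicates 1, 3 and 4, and 0.933 to 0.949 among these. Its 8 neutrophil markers summed to 27130 CPM, against 955, 10370 and 1107 CPM in control-LNP replicates 1, 3 and 4. Counts of changed genes that moved when control-LNP replicate 2 was left out are given with and without it. The part of these cell type differences in the results below was not tested.

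Of the 10 genes, 8 were higher with ITA-LNP and none was lower (limma, Benjamini-Hochberg adjusted over 12636 genes, threshold 0.05). Over all genes tested, 10.3% were higher and 5.15% lower. The 8 genes were Pdgfa, Pdgfc, Pdgfd, Pdgfrb, Notch3, Rgs5, Cspg4 and Mcam, and in each every ITA-LNP value lay above every control-LNP value, as it did for 19.1% of all genes tested. Pdgfb and Angpt1 did not pass, and their groups overlapped. Without control-LNP replicate 2, 9 of the 10 were higher and Angpt1 was lower, beside 15.7% higher and 15.7% lower over all genes. All 10 genes passed the filter on low values, but only Pdgfa, Pdgfb, Rgs5 and Angpt1 would have passed it in the control-LNP libraries alone. The other 6 passed through the group in which they were high, so their count, p-values and passes in the alternatives are descriptions. Without control-LNP replicate 2 the same holds for Pdgfb, with a mean log2(CPM + 1) of 0.927 in the remaining control-LNP libraries. Scaling matters for the background. With each library centred on its median, the median log2 fold change of all genes moved from 0.15 to -0.98, and the share of changed genes that were higher from 66.7% to 37.2% (53.5% with quantile normalization). The rises of the 8 genes kept their direction under both scalings, while 6 of them kept their call with median centring.

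**Figure D1:**
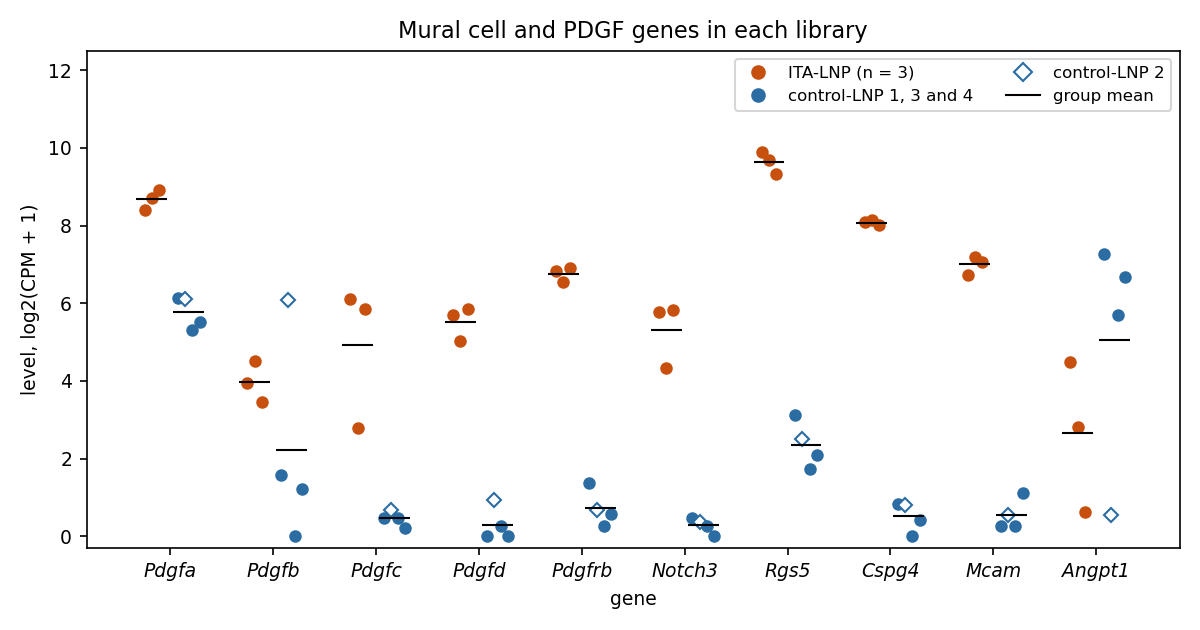
Level of each gene in each library, as log2(CPM + 1) on the vertical axis, with ITA-LNP libraries in orange, control-LNP libraries in blue, control-LNP replicate 2 as an open diamond and group means as lines. For 8 genes the groups are apart, whereas for Pdgfb the open diamond lies above, and for Angpt1 below, the other control-LNP libraries.

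Pdgfa, which encodes the PDGF-A chain, was the most abundant ligand gene in the ITA-LNP libraries. It lies on chromosome 5 (mm10, 138976014 to 138997370). It measured 339, 415 and 478 CPM in ITA-LNP replicates 1 to 3, and 69.1, 68.5, 38.5 and 44.8 CPM in control-LNP replicates 1 to 4. Unlike the other ligand genes it was well above background counts in every library, with at least 200 reads. The log2 fold change on log2(CPM + 1) was 2.90 ± 0.41 (SE; adjusted p = 0.00151, limma), a ratio of mean CPM of 7.44. With median centring it was 1.78 and did not pass (adjusted p = 0.290). Control-LNP replicates 1 and 2 were close to each other in Pdgfa.

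Pdgfb encodes the PDGF-B chain (chromosome 15, 79995874 to 80014977), which endothelium and platelets make. Its ITA-LNP values were 14.4, 21.8 and 9.89 CPM. In control-LNP replicates 1, 3 and 4 it was at 1.97, 0 and 1.31 CPM, on 10, 0 and 8 reads, but in replicate 2 at 66.8 CPM, on 447 reads. That single library was above all ITA-LNP values and the others below them. The log2 fold change was 1.75 ± 1.40 and did not pass (adjusted p = 0.468; 95% interval -1.39 to 4.90). Leaving that library out raised it to 3.04 ± 0.73, past the threshold (adjusted p = 0.0146, limma). The remaining control-LNP libraries alone would not have passed the filter on low values, so this call is a description. A value at least 10-fold above all other control-LNP libraries, and at 10 CPM or more, was found in that replicate for 1.76% of all genes tested. In that replicate the platelet markers summed to 15110 CPM, the other control-LNP libraries ranging from 11000 to 15150 CPM, and the neutrophil markers to 27130 CPM. Their part in the Pdgfb value was not tested.

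Pdgfc and Pdgfd encode ligand chains that are secreted in latent form, with a CUB domain that proteases remove. Pdgfc (chromosome 3, 81036416 to 81214040) measured 67.4, 5.89 and 57.1 CPM with ITA-LNP, replicate 2 being 11.4 times below the highest. In the control-LNP libraries it measured 0.394, 0.598, 0.385 and 0.164 CPM, on 2, 4, 2 and 1 reads. The groups did not overlap, and the log2 fold change was 4.45 ± 1.01 (adjusted p = 0.0141). The call was lost without control-LNP replicate 3 or 4 (adjusted p = 0.0543 and 0.0566), with median centring (0.107) and with a replicate block (0.0767). Pdgfd (chromosome 9, 6168584 to 6378850) was more even, at 50.5, 31.7 and 57.0 CPM with ITA-LNP. It had 0, 6, 1 and 0 reads in control-LNP replicates 1 to 4, or up to 0.897 CPM. Its log2 fold change was 5.23 ± 0.82 (adjusted p = 0.00225), and it stayed under the threshold of 0.05 in all 19 alternatives.

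Together the ligand genes summed to 472, 474 and 602 CPM with ITA-LNP and to 71.5, 136.8, 39.0 and 46.2 CPM in the control-LNP libraries. Pdgfa gave 71.9%, 87.5% and 79.4% of the ligand reads with ITA-LNP. In control-LNP replicates 1, 3 and 4 it gave 96.7%, 98.5% and 96.8%, and almost nothing of Pdgfc or Pdgfd was read. In control-LNP replicate 2 the reads were split between Pdgfa (50.05%) and Pdgfb (48.8%). Pdgfc and Pdgfd gave 14.3% and 10.7% in ITA-LNP replicate 1, 1.24% and 6.68% in replicate 2, and 9.49% and 9.47% in replicate 3. Among the ITA-LNP libraries both the Pdgfa and the Pdgfc share thus moved, replicate 2 having the highest of Pdgfa and the lowest of Pdgfc.

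**Figure D2:**
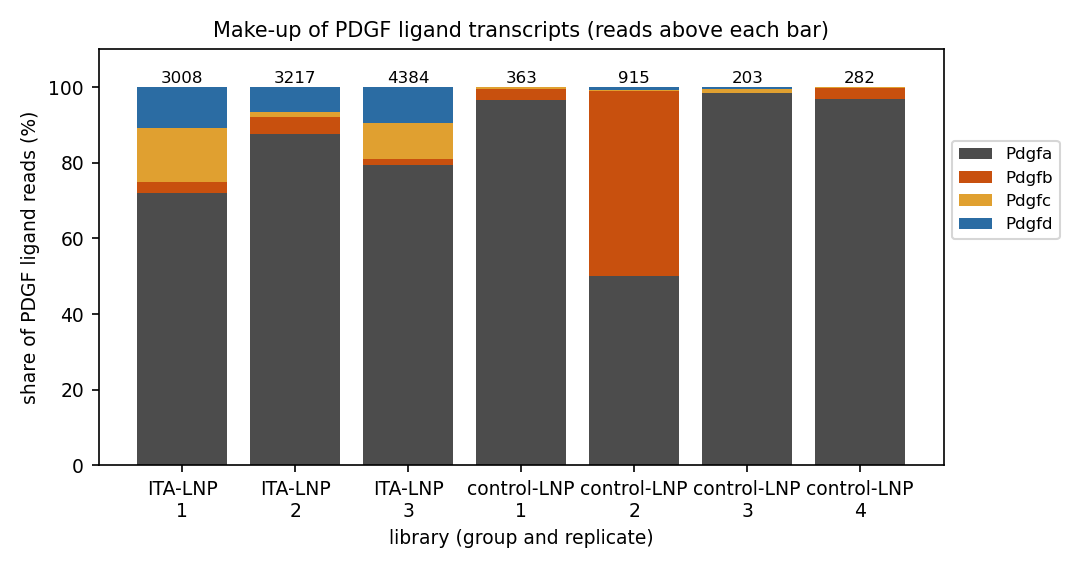
Share of each PDGF ligand gene in the summed ligand reads of each library, in percent, with the number of reads above each bar. Pdgfa makes up 71.9% to 87.5% with ITA-LNP and 96.7% to 98.5% in control-LNP replicates 1, 3 and 4, while control-LNP replicate 2 is divided between Pdgfa and Pdgfb.

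Pdgfrb encodes the receptor for PDGF-B and PDGF-D (chromosome 18, 61045150 to 61085061) and marks pericytes, smooth muscle cells and fibroblasts. It measured 112, 92.4 and 119 CPM with ITA-LNP, a coefficient of variation of 12.7%. In control-LNP replicates 1 to 4 it was at 1.58, 0.598, 0.192 and 0.492 CPM, on 8, 4, 1 and 3 reads. All ITA-LNP values were thus far above the control-LNP values, which came from 16 reads in all. The log2 fold change was 6.04 ± 0.80 (adjusted p = 0.00107), and it passed in all 19 alternatives. Pdgfra, the receptor for PDGF-A and PDGF-C and a fibroblast marker, measured 88.5, 26.1 and 60.2 CPM in the ITA-LNP libraries, against 0.164 to 1.35 CPM in the control-LNP libraries. Its log2 fold change was 4.88 ± 0.87 (adjusted p = 0.00428), and with median centring it did not pass (adjusted p = 0.0570). In ITA-LNP replicate 2, Pdgfra and its ligand gene Pdgfc were both at their lowest ITA-LNP value.

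Among the mural cell genes, Rgs5 was the most abundant and Cspg4 the most even. Rgs5 (chromosome 1, 169655501 to 169695813) encodes a regulator of G protein signalling that is a classical pericyte and arterial smooth muscle marker. It measured 945, 820 and 637 CPM with ITA-LNP and 7.68, 4.63, 2.31 and 3.28 CPM in control-LNP replicates 1 to 4. Its log2 fold change was 7.27 ± 0.58 (adjusted p = 8.28e-05). Cspg4 (chromosome 9, 56865033 to 56899870) encodes NG2, a membrane proteoglycan of pericytes. It measured 271, 279 and 255 CPM with ITA-LNP, a coefficient of variation of 4.55%. The median was 53.6% over the 10353 tested genes with an ITA-LNP mean of at least 5 CPM, most of them not matched to Cspg4 in level. Near its level, Lrp1 (261 CPM) had 9.84% and Ebf1 (281 CPM) 34.8%, and genes of that level were not compared as a set. The control-LNP libraries had 4, 5, 0 and 2 reads of it, and the log2 fold change was 7.56 ± 0.75 (adjusted p = 0.000246).

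Mcam (chromosome 9, 44134469 to 44142727) encodes CD146, an adhesion molecule of endothelium and mural cells. Its ITA-LNP values were 106, 145 and 133 CPM, and its control-LNP values 0.197, 0.448, 0.192 and 1.15 CPM, on 1, 3, 1 and 7 reads. The groups were apart, with a log2 fold change of 6.46 ± 0.80 (adjusted p = 0.000740). Notch3 (chromosome 17, 32120820 to 32166852), a receptor of arterial smooth muscle, was at 53.3, 19.2 and 55.8 CPM with ITA-LNP. It had 2, 2, 1 and 0 reads in control-LNP replicates 1 to 4, and its log2 fold change was 5.03 ± 0.83 (adjusted p = 0.00295). ITA-LNP replicate 2 was again the lowest library, as for Pdgfc and Pdgfra. Rgs5, Cspg4, Mcam and Notch3 each passed in all 19 alternatives.

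The stretch upstream of the RefSeq start sites of the 10 genes was also read (GRCm38.p6, the assembly behind mm10). It spans 250 bases on the gene's strand and ends just before the RefSeq start, which can differ from the GENCODE start given above. The Mcam and Cspg4 windows run past the GENCODE starts (44134469 and 56865033), and both Pdgfa windows lie inside the GENCODE gene. Whether the genes share regulation was not tested. Windows matched for 7 of the 10 genes, Pdgfa having a pair of them, and not for Pdgfb, Pdgfrb and Angpt1. Rgs5, Cspg4, Mcam and Notch3 are shown as mural cell genes that were higher in the ITA-LNP libraries. Pdgfc is shown because it alone held a CArG box, the site of serum response factor that many smooth muscle genes carry. Capitals mark matches, on either strand, to the CArG box, TGGGAA (the RBPJ core of Notch signalling), GCGGGGGCG (EGR1), TGAGTCA (AP-1) or GGGCGG (SP1).
Rgs5, chr1:169655251-169655500, plus strand: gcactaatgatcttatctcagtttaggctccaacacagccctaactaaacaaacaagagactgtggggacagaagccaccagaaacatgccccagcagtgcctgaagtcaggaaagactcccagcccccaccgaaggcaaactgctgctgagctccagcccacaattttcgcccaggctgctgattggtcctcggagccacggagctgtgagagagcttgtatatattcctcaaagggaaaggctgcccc
Cspg4, chr9:56864854-56865103, plus strand: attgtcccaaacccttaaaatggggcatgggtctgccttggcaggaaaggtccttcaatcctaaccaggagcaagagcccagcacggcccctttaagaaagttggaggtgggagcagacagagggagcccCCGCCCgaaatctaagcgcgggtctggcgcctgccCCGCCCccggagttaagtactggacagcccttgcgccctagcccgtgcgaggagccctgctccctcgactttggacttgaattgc
Mcam, chr9:44134408-44134657, plus strand: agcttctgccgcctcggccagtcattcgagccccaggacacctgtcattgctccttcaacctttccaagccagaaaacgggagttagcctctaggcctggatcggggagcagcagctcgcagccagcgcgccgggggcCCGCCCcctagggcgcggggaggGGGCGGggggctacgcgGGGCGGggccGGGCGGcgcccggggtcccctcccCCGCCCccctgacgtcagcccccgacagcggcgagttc
Notch3, chr17:32166891-32167140, minus strand: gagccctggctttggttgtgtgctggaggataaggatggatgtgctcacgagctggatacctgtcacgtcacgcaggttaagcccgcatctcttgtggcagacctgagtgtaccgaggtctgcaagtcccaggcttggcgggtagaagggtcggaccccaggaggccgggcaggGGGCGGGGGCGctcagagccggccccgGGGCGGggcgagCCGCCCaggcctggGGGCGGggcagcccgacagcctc
Pdgfc, chr3:81036166-81036415, plus strand: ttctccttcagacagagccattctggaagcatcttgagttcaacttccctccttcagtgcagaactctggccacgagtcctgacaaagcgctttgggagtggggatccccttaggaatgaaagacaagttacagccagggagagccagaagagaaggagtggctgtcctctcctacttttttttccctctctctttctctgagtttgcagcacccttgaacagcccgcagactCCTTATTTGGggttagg

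No motif was shared by all 4 mural cell windows. The Rgs5 window held none of the motifs. SP1 matches numbered 2 in Cspg4, 5 in Mcam and 4 in Notch3, where 1 of them overlapped an EGR1 match, and among the ligands only Pdgfa windows held any. SP1 matches occur in 32.7% of all 32851 windows, and EGR1 matches in 2.57%. The CArG box of Pdgfc began 17 bases before the start, and such a box is found in 1.47% of all windows. RBPJ cores, present in 21.6% of all windows, were found for Pdgfa and Pdgfd and not in the Notch3 window. AP-1 matches (4.46% of all windows) were found in none of the 8 windows. The GC content was 53.6% for Rgs5, 60.4% for Cspg4, 73.6% for Mcam, 68.8% for Notch3 and 50.8% for Pdgfc, against a median of 52.4% over all windows. A match describes the letters in these windows and is not a measured binding site.

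Angpt1 (chromosome 15, 42424723 to 42676977), the gene of angiopoietin 1, went against the other genes in most libraries. It measured 21.5, 6.04 and 0.549 CPM with ITA-LNP, on 137, 41 and 4 reads. In control-LNP replicates 1, 3 and 4 it was at 151.9, 51.0 and 101.3 CPM, but in replicate 2 at 0.448 CPM, on 3 reads. Apart from replicate 2, every control-LNP value lay above every ITA-LNP value. Over all libraries the log2 fold change was -2.40 ± 1.64 and did not pass (adjusted p = 0.384; 95% interval -6.07 to 1.28). With replicate 2 left out it came to -3.90 ± 0.95, past the threshold (adjusted p = 0.0158), on means of 9.36 CPM with ITA-LNP and 101.4 CPM with control-LNP. The ITA-LNP libraries varied more in Angpt1 than in any other of the 10 genes, by a coefficient of variation of 116%. For 25.9% of all genes tested, control-LNP replicate 2 was at least 10-fold below each of the other control-LNP libraries where those had 10 CPM or more. The summed platelet markers were 15150, 15110, 11000 and 14740 CPM in control-LNP replicates 1 to 4, and their part in the Angpt1 values was not tested.

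**Figure D3:**
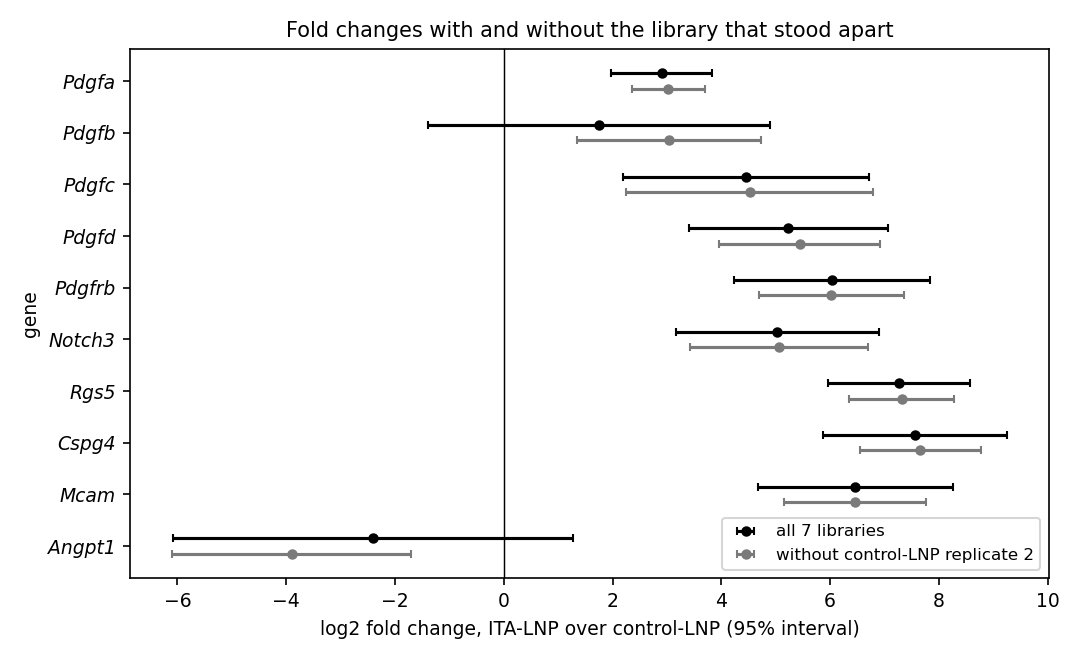
Log2 fold change of each gene, ITA-LNP over control-LNP, with its 95% interval, from all 7 libraries (black) and without control-LNP replicate 2 (grey). The intervals of Pdgfb and Angpt1 include 0 with all libraries and exclude it without that replicate, while the other 8 lie above 0 in both.

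Within the ITA-LNP libraries the levels, which in 3′ end sequencing do not depend on gene length, ran from Rgs5 (mean 801 CPM) over Pdgfa (411), Cspg4 (268), Mcam (128), Pdgfrb (108), Pdgfd (46.4), Pdgfc (43.5), Notch3 (42.8) and Pdgfb (15.4) to Angpt1 (9.36). The ranges of Rgs5, Pdgfa and Cspg4 did not overlap with the next gene in this order. Mcam overlapped with Pdgfrb, and from Pdgfd down to Angpt1 each gene overlapped with the next. In the control-LNP libraries Angpt1 (76.2), Pdgfa (55.2) and Pdgfb (17.5) led, and their ranges overlapped. The mean of Pdgfb was 1.09 CPM without replicate 2, below Rgs5 at 4.42 CPM.

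Each gene was also set against smooth muscle, as its reads per 1000 reads of 10 smooth muscle markers (Acta2, Tagln, Myh11, Cnn1, Lmod1, Smtn, Myocd, Itga8, Synpo2 and Actg2). Rgs5 stood at 52.2, 42.3 and 29.5 per 1000 with ITA-LNP and at 33.6, 28.9, 18.5 and 24.1 with control-LNP, so the groups overlapped on this scale. Pdgfrb was at 6.20, 4.76 and 5.50 against 6.88, 3.73, 1.54 and 3.62, again with overlap. Pdgfc, Pdgfd, Notch3 and Mcam overlapped as well, on 9, 7, 5 and 12 control-LNP reads. Overlap of so few reads does not show that the proportions were alike. For Pdgfrb the pooled control-LNP value was 4.31 per 1000 (95% exact Poisson interval 2.46 to 7.0, counting error only), against 5.46 with ITA-LNP (5.23 to 5.69). For Rgs5 it was 27.5 (22.4 to 33.4) against 40.1 (39.5 to 40.8), and for Mcam 3.23 (1.67 to 5.65) against 6.51 (6.26 to 6.76), so the pooled counting intervals did not overlap although the libraries did. Without control-LNP replicate 2 the Mcam interval was 1.56 to 6.47 and overlapped that of ITA-LNP.

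For Pdgfa, Angpt1 and Cspg4 the groups did not overlap on this scale. The share of all genes tested that do not overlap on it was not computed. The divisor itself differed, the smooth muscle markers summing to 125 to 229 CPM with control-LNP and 18100 to 21590 CPM with ITA-LNP. A gene that differs much less in CPM than these sums therefore comes out higher with control-LNP. Pdgfa was at 18.8, 21.4 and 22.1 per 1000 with ITA-LNP and at 302, 427, 308 and 329 with control-LNP. Angpt1 was at 0.0254 to 1.19 with ITA-LNP, and at 664, 2.80, 408 and 746 in control-LNP replicates 1 to 4. Cspg4 went the other way, at 14.96, 14.4 and 11.8 with ITA-LNP and 3.44, 4.66, 0 and 2.41 with control-LNP. Its pooled control-LNP value was 2.96 per 1000 on 11 reads (1.48 to 5.30), and 2.27 without replicate 2 (0.834 to 4.95). Pdgfb was at 0.458 to 1.12 with ITA-LNP and at 8.61, 417, 0 and 9.65 with control-LNP. Which cells gave these reads was not tested.

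**Figure D4:**
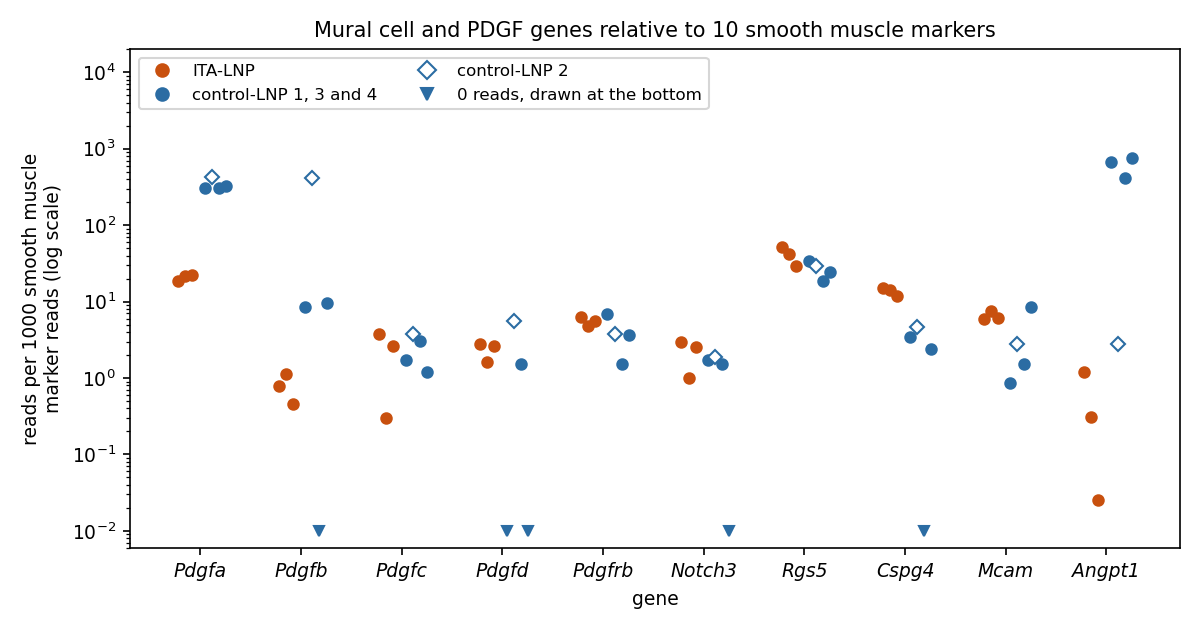
Reads of each gene per 1000 reads of 10 smooth muscle markers, on a log scale, for each library; triangles at the bottom mark 0 reads. Rgs5, Pdgfrb, Pdgfc, Pdgfd, Notch3 and Mcam overlap between the groups, Pdgfa and Angpt1 are higher with control-LNP, and Cspg4 is higher with ITA-LNP.

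Further genes of these pathways were counted from lists, beside 10.3% higher and 5.15% lower over all genes tested. Of 8 other PDGF receptor, co-receptor and activating protease genes, 6 were higher, with a median log2 fold change of 4.09 against 0.15 over all genes tested. Nrp1, a co-receptor of VEGF and PDGF, was at 431 against 34.1 CPM (4.15 ± 0.86, adjusted p = 0.00901), and Lrp1, which binds PDGFRβ, at 261 against 27.6 CPM (3.76 ± 0.86, adjusted p = 0.0151). Lrp1 passed in 16 of 19 alternatives, with adjusted p up to 0.0671. Furin, which processes PDGF-A and PDGF-B precursors, was at 67.6 against 59.0 CPM and did not pass (adjusted p = 0.780). Of 26 genes that carry the signal inside the cell, none was higher and 1, the adaptor gene Grb2, was lower (151 against 310 CPM, -1.04 ± 0.30, adjusted p = 0.0477). That is 3.85% of the list, near the 5.15% lower over all genes tested. The call of Grb2 held in only 10 of 19 alternatives, with adjusted p up to 0.237. The list's median log2 fold change was -0.03. The most abundant of them, Stat3, was at 402 against 403 CPM (adjusted p = 0.934), and Pik3r1, a subunit of PI3 kinase, at 174 against 167 CPM (adjusted p = 0.789). Without control-LNP replicate 2, 4 of the 26 were higher and 4 lower, close to the 15.7% higher and 15.7% lower over all genes tested. The 4 lower genes were Grb2, Nck2, Cbl and Ptprj, all but Grb2 named after their values were seen.

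Notch and angiopoietin partners moved unevenly. Of 20 tested Notch pathway genes 5 were higher and none lower, beside 10.3% and 5.15% over all genes tested. The list's median log2 fold change was 1.34. Without control-LNP replicate 2, 5 were higher and 2 lower, Lfng and Mfng, which encode glycosyltransferases that modify Notch receptors. Over all genes tested, 15.7% were higher and 15.7% lower without that replicate. The 5 higher genes were the ligand genes Jag1 and Dll4 and the target genes Hey2, Heyl and Hes1; of these 7 genes all but Hes1 are named after their values were seen. Heyl was at 75.7 against 0.815 CPM (5.37 ± 0.80, adjusted p = 0.00181) and Hes1 at 648 against 72.9 CPM (3.83 ± 1.03, adjusted p = 0.0316). Hes1 passed in 14 of 19 alternatives, with adjusted p up to 0.121. Notch2 (117 against 95.1 CPM) and Rbpj (106 against 84.3 CPM), the transcription factor of the pathway, did not pass (adjusted p = 0.643 and 0.657). Of 5 tested angiopoietin and Tie genes 4 were higher. Angpt2, the gene of the antagonist angiopoietin 2, was at 108 against 1.35 CPM (5.56 ± 0.78, adjusted p = 0.00134), opposite in sign to Angpt1. Tek, the receptor gene, was at 19.6, 5.31 and 14.6 CPM with ITA-LNP and had 1, 0, 0 and 0 reads in control-LNP replicates 1 to 4 (3.60 ± 0.75, adjusted p = 0.00927). The call of Tek was lost with median centring (adjusted p = 0.145), with a replicate block (0.0971) and without control-LNP replicate 3 or 4 (0.0565 and 0.0578). Ptprb, a phosphatase that restrains TIE2, was at 385 against 2.12 CPM.

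The RGS family split by member. Over all genes tested 10.3% were higher and 5.15% lower, and 15.7% each without control-LNP replicate 2. Of 13 tested relatives of Rgs5, 3 were higher (Rgs4, Rgs16 and Rgs17, named after their values were seen) and 3 lower. Rgs14 and Rgs19 were lower as well, making 5, without control-LNP replicate 2 (both named after their values were seen). Rgs18, known from platelets, was at 3.42 against 512 CPM (-6.93 ± 0.55, adjusted p = 7.67e-05), Rgs10 at 24.4 against 530 CPM (-4.70 ± 0.54, adjusted p = 0.000519) and Rgs2 at 204 against 882 CPM (-2.02 ± 0.38, adjusted p = 0.00530). Rgs2 passed in 17 of 19 alternatives, with adjusted p up to 0.125. Rgs5, by contrast, was at 801 against 4.48 CPM. VEGF ligands belong to the same growth factor superfamily as PDGFs. Of 6 tested VEGF ligand and receptor genes 4 were higher, including the receptor genes Flt1 (352 against 16.7 CPM) and Kdr (148 against 5.43 CPM). Flt1 passed in 18 of 19 alternatives, with adjusted p up to 0.134. All 6 were higher without control-LNP replicate 2.

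Markers of the cell types that could hold these transcripts moved as follows. The shares over all genes tested were 10.3% higher and 5.15% lower, and 15.7% each without control-LNP replicate 2. Of 11 tested pericyte markers 6 were higher and none lower, and 8 were higher without control-LNP replicate 2. Postn, which fibroblasts also make, rose by a log2 fold change of 7.35 ± 0.46 (adjusted p = 1.70e-05), while Ebf1, which B cells also express, was at 281 against 376 CPM (adjusted p = 0.683). Of 16 pericyte markers listed, Higd1b, Ndufa4l2 and Cox4i2, markers of microvascular pericytes named after their values were seen, had 0 reads in all 7 libraries. All 10 smooth muscle markers, 9 of 10 fibroblast, 5 of 9 endothelial, 6 of 7 cartilage-like, 3 of 6 white adipocyte and 3 of 5 Schwann cell markers were higher, and none of these 6 lists had a lower gene. Without control-LNP replicate 2, all 10 fibroblast and all 7 cartilage-like markers were higher, and the Schwann cell marker Mbp was lower (14.2 against 65.5 CPM). In the other direction, 13 of 14 platelet, 7 of 8 B cell, 6 of 10 T cell and 6 of 8 neutrophil markers were lower. Without that replicate, 14 platelet, 8 B cell, 9 T cell and 6 neutrophil markers were lower. Macrophage markers went both ways, with 5 of 10 higher and 1, Csf1r, lower (6 higher, and Csf1r and Itgam lower, without that replicate). Csf1r passed in 16 of 19 alternatives, with adjusted p up to 0.0556. The median of the 10 mural cell and PDGF genes in control-LNP replicates 1 to 4, as a percent of their ITA-LNP mean, was 0.940%, 1.04%, 0.351% and 0.433%. For the smooth muscle markers it was 1.08%, 0.789%, 0.571% and 0.631%, and for the fibroblast markers 1.63%, 1.05%, 0.622% and 0.702%. The endothelial medians differed in order, at 4.85%, 0.409%, 3.10% and 2.07%, being lowest in replicate 2. The summed endothelial markers were instead highest in replicate 2, at 454 CPM, against 425, 256 and 300 CPM in replicates 1, 3 and 4.

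**Figure D5:**
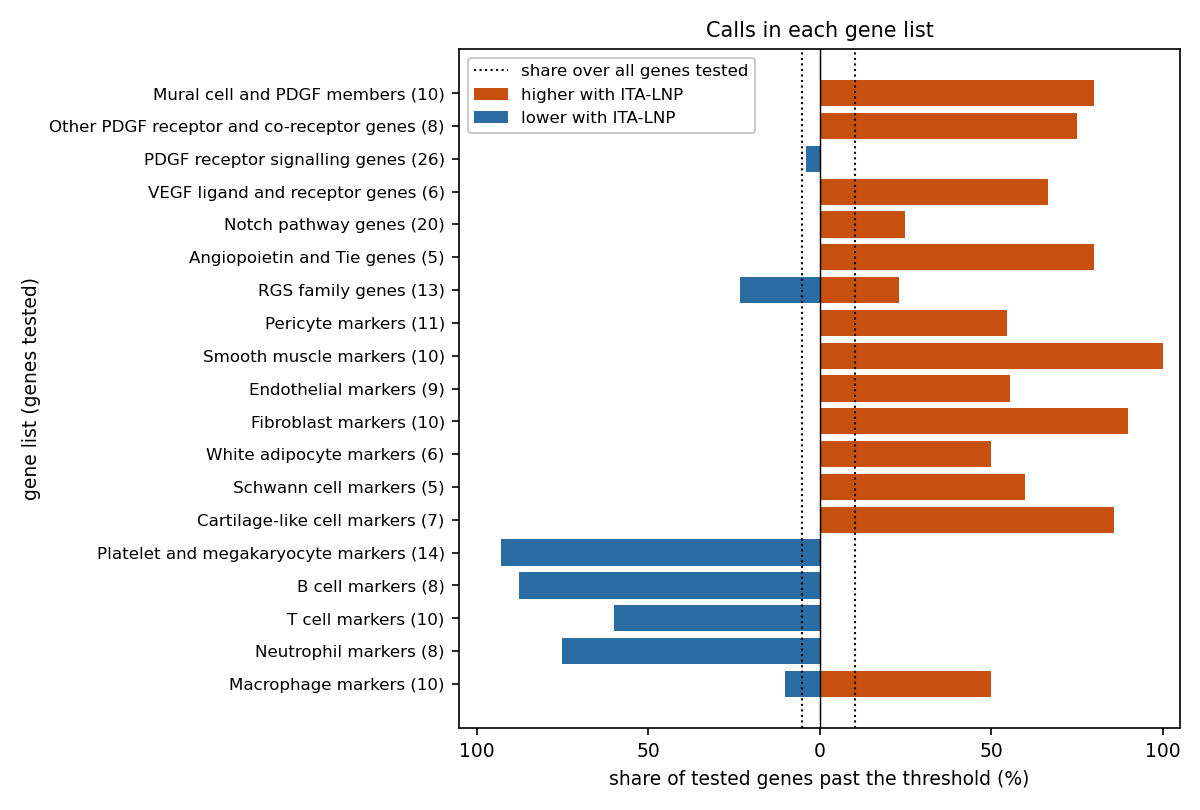
Share of tested genes in each list that were higher (orange, to the right) or lower (blue, to the left) with ITA-LNP, in percent, with the number tested in brackets and the shares over all genes tested as dotted lines. Wall cell lists extend to the right and blood cell lists to the left, and the PDGF receptor signalling genes stay near 0.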

How the data were processed

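Libraries were made from 500 ng of total RNA with a QuantSeq 3′ mRNA kit, per the labels' protocols, and mm10 is the genome build in the submitters' processing notes. For the aligner, counter, annotation, strand and molecular identifiers: not given in the sources used here. In GENCODE M21, exons of Pdgfa, Pdgfc, Notch3, Mcam and Angpt1 overlap genes on the other strand, whose reads could not be told apart if strand was ignored.

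The authors deposited log10 values, read here as log10 of CPM + 1 because each column converts to a sum of 1000000 CPM. All values (100%) were whole multiples of 1 read within a tolerance of 0.01, which gave reads and depths. Tests used log2(CPM + 1), so folds of low genes are understated. Genes with a mean of at least 1 were kept (12636), and ITA-LNP was compared with control-LNP by limma-trend (limma 3.58.1, R 4.3.3) with Benjamini-Hochberg adjustment. Values after ± are standard errors. The procedure was tested on simulated data. Python 3.11.15, pandas 2.3.3, numpy 2.4.6 and matplotlib 3.10.9 were used.

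The 10 genes, the 18 further lists and the tests were chosen with earlier results of these data known. Genes were named by rule: the 10, Pdgfra, Tek, the 3 most abundant of each list and any changed against its list; the rest are said to be named after their values were seen. Gene coordinates are from GENCODE M21, upstream sequences from RefSeq (GRCm38.p6). The closing section gives the 19 alternatives. The criterion of a 10-fold distance of control-LNP replicate 2 was set after seeing the data.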

Additional observations from a re-analysis of the deposited data

How the results depend on the processing

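Of the 10 genes, Rgs5, Cspg4, Mcam, Notch3, Pdgfrb and Pdgfd passed in all 19 alternatives, Pdgfa in 18 and Pdgfc in 15. None of the 10 changed sign in any of them. Cspg4, Mcam, Notch3, Pdgfrb, Pdgfd and Pdgfc passed the filter on low values through the group in which they were high. Their passes in the alternatives, which reuse the same libraries, are therefore descriptions. Pdgfb passed in 3 alternatives, all of which left out or down-weighted control-LNP replicate 2, and Angpt1 in 4, these and quantile normalization. Between 6 and 10 of the 10 genes were called, 6 with median centring and 10 without control-LNP replicate 2 and with sample weights. Over all genes, 1957 were called, and 3015 with quantile normalization, 4343 with sample weights, 4228 with median centring without control-LNP replicate 2 and 1372 to 3964 when 1 library was left out, the highest being without control-LNP replicate 2. With a replicate block on the 6 libraries that share a number, 1066 genes and 7 of the 10 were called. Deviations of same-numbered libraries correlated at 0.005, -0.010 and -0.017, and 1 of 3 ITA-LNP libraries correlated best with its own number, so the numbers were not taken as pairs. The cause of these moves was not tested. The low control-LNP counts (5 to 16 reads in 4 libraries for Notch3, Pdgfd, Pdgfc, Cspg4, Mcam and Pdgfrb) limit how large those folds can be said to be.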

Other observations

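The libraries within the ITA-LNP group were not alike in all of these genes. Replicate 2 held the lowest ITA-LNP value of Pdgfc (5.89 CPM), Pdgfra (26.1), Notch3 (19.2), Pdgfd (31.7), Pdgfrb (92.4) and Tek (5.31), and the highest of Pdgfb (21.8), Cspg4 (279) and Mcam (145). The spread was widest for Angpt1 and Pdgfc, with coefficients of variation of 116% and 75.8%. Those of Tek (55.1%) and Pdgfra (53.6%) were near the median of all tested genes with an ITA-LNP mean of at least 5 CPM.

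Among the genes of the further lists, 3 of 183 tested were, like Pdgfb, at least 10-fold higher in control-LNP replicate 2 than in the other control-LNP libraries. These were Hey1, a Notch target, Steap4, a metalloreductase, and C1qc, a complement chain. Like Angpt1, 27 of the 183 (14.8%) were at least 10-fold lower there, among them Nrp1, Hes1 and Kcnj8. Over all genes tested, 1.76% were that much higher and 25.9% that much lower in this library, so neither count exceeds the background.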
